A study of Homo sapiens with 12 samples.

Results

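The genes described are 9 members of the TNF superfamily and its receptors in PANC-1, a human cell line from pancreatic ductal adenocarcinoma. They comprise the ligands TNF, TNFSF9, TNFSF10 and TNFSF15 and the receptors FAS, TNFRSF9, TNFRSF10A, TNFRSF10B and TNFRSF10D. They were chosen by symbol, with earlier results of these data known. All 9 were matched among the 60669 identifiers of each count table, and 8 passed the filter on low counts, TNFSF15 being the exception. Cells were transfected for 72 h with an siRNA against SIK3, a salt-inducible kinase, or with a control siRNA. They were then left unstimulated or given recombinant human TNF at 100 ng/mL for 30 min or 4 h, in complete DMEM. This gives 6 groups of 2 libraries each, described in the series as biological replicates. The groups are SIK3 siRNA unstimulated, SIK3 siRNA with TNF 30 min and SIK3 siRNA with TNF 4 h, and control siRNA unstimulated, control siRNA with TNF 30 min and control siRNA with TNF 4 h. The series text names 1 siRNA sequence per target, and the titles call the target AS1 where the characteristics call it SIK3.

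The condition words in the names of the deposited tables disagree with the sample titles, and with the characteristics, which match the titles, for 8 of the 12 libraries. Both put the same libraries together in pairs, so the measured values and their spread do not depend on the choice, while the condition given to 4 of the 6 pairs does. The conditions below were taken from the table names and not from any measured value, and the word CLM was read by elimination as unstimulated. Which source is right is not settled by the labels. SIK3 mRNA, read first as a check of the labels, had 16.3, 22.4, 17.3, 24.0, 18.3 and 22.8 CPM (counts scaled to library size by TMM) in the 6 SIK3 siRNA libraries. It had 34.3, 60.4, 42.5, 68.7, 34.4 and 65.2 CPM in the 6 control siRNA libraries, so the groups did not overlap. The difference of mean log2 CPM was -1.292, with p = 0.00216 in a 2-sided exact permutation test, the smallest p that 924 splits allow. The test takes the 6 libraries of an siRNA as interchangeable, though they span the TNF times and both replicate numbers. Within each siRNA every replicate 2 library was above every replicate 1 library, so this p does not stand for 6 independent replicates. Under the titles the same libraries overlapped, at 16.3 to 68.7 CPM for SIK3 siRNA and 17.3 to 65.2 CPM for control siRNA, with a difference of -0.354 and an exact permutation p of 0.431.

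Ligands of the TNF superfamily are mostly trimeric membrane or secreted proteins that cluster their receptors on the cell surface. FAS and the TRAIL receptors TNFRSF10A (DR4) and TNFRSF10B (DR5) carry a cytoplasmic death domain that recruits FADD and caspase-8, whereas TNFRSF10D (DcR2) has a truncated death domain and acts as a decoy for TNFSF10 (TRAIL). TNFRSF9 (4-1BB, CD137) binds TNFSF9 (4-1BBL), signals through TRAF adaptors and is best known as a costimulatory receptor of T cells. TNF acts through TNFRSF1A and TNFRSF1B and switches on NF-κB, whose targets include many genes of this family. The TNF added to the cells was protein, so the TNF counts are RNA from the cells' own gene.

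Sequences ahead of starts of 4 genes whose mRNA differed with TNF are shown because these are the genes of the early and late responses described below. Whether the sequences bear on the responses was not tested. They come from RefSeq's promoter windows (GRCh38.p14), of which 8 windows of 6 members were searched, 3 of them for FAS. TNF lies on chromosome 6 at 31575567 to 31578336 (plus strand) and TNFSF9 on chromosome 19 at 6530999 to 6535928 (plus strand), in GENCODE 29 coordinates of GRCh38. The first stretch holds the 250 bases ahead of the TNF start, and the second the 223 bases that end where the first annotated TNFSF9 exon begins. The other stretches are 30 bases around a match to the NF-κB consensus, ahead of a TNFRSF9 start and of the FAS start with a match. Both stretches lie inside the GENCODE 29 spans of these genes. The spans are chromosome 1, 7915894 to 7943165 (minus strand) for TNFRSF9 and chromosome 10, 88990582 to 89015785 (plus strand) for FAS. Capitals mark motif matches, which are an EGR match in TNF and NF-κB matches in TNFRSF9 and FAS.
TNF, chr6:31575315-31575564, plus strand: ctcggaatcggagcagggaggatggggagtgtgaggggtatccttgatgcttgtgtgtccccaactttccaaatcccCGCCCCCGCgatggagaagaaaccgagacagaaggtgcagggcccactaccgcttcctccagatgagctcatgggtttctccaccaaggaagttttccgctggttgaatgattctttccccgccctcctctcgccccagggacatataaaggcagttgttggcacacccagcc
TNFSF9, chr19:6530776-6530998, plus strand: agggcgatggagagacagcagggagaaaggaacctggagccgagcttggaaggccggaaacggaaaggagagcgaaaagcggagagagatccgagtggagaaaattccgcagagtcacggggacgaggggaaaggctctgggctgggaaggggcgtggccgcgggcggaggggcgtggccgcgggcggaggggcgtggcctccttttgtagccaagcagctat
TNFRSF9, chr1:7940894-7940923, minus strand: gagctgtggtGGGAATTTCCCatgagaccc
FAS, chr10:88991264-88991293, plus strand: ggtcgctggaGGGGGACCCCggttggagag

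Both strands of the 250 bases ahead of each start were searched for 4 motifs. The NF-κB consensus was found in 9.96% of all 35116 windows, and among the members in TNFRSF9, 74 bases ahead of the start and again on the other strand 1 base on, and in 1 FAS window, 157 bases ahead. The AP-1 motif TGANTCA was in 6.57% of all windows and in 3 member windows, those of TNFRSF9 (44 bases ahead), TNFSF15 (120) and another FAS start (242). The EGR motif GCGNGGGCG was in 8.41% of all windows, and in TNF (173 bases ahead) and the FAS window with the NF-κB match (56). The CRE motif TGACGTCA, in 1.65% of all windows, was in none of the 8 member windows. The TNFSF9 window held no match to any of the 4 motifs. These are matches of letters, not measured binding.

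Gene counts ran from 13535825 to 22699756 per library. Multimapping reads were 4.94 to 17.6% of reads in replicate 1 libraries and 10.2 to 45.3% in replicate 2 libraries. Reads in no annotated feature were 16.5 and 17.1% in the SIK3 siRNA libraries at TNF 4 h, against 8.35 to 10.5% in the other 10, and their part in the results at 4 h was not tested. All 5 markers of the ductal line were measured at a mean of at least 1 CPM (KRT7, KRT8, KRT18, KRT19 and VIM). Over the 12 libraries KRT7 had only 5.91 to 11.7 CPM, beside 2648.1 to 3541.4 for KRT8, 1709.7 to 2184.0 for KRT18 and 717 to 1266.5 for KRT19. The summed level of the 5 markers was 6588.7 to 8525.6 CPM in SIK3 siRNA libraries and 9096.9 to 10212.0 CPM in control siRNA libraries. Of this sum VIM, an intermediate filament of mesenchymal cells that carcinoma lines also express, had 1352.5 to 2320.1 CPM in SIK3 siRNA libraries and 3262.3 to 3998.1 CPM in control siRNA libraries. The 4 keratins summed to 5178.7 to 6391.2 CPM in SIK3 siRNA libraries and 5522.3 to 6830.5 CPM in control siRNA libraries, and so overlapped. None of 5 immune and 3 endothelial markers reached a mean of 1 CPM (sums of 0.0836 to 0.769 and 0.268 to 1.16 CPM over the 12 libraries), and PTPRC, which marks leukocytes, was at 0 to 0.0551 CPM. Of 4 fibroblast markers COL1A1 reached it, and their sum was 7.9 to 16.4 CPM in SIK3 siRNA libraries and 6.59 to 10.3 CPM in control siRNA libraries. Bulk RNA cannot tell fewer cells of a kind from less RNA per cell.

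Levels per length were compared as CPM per kb of merged exons. In unstimulated control siRNA cells TNFRSF10B stood highest, at 24.8 ± 0.743 CPM per kb (SD, n = 2, as for the values that follow). TNFRSF10A at 9.47 ± 0.619 and FAS at 9.32 ± 0.0105 did not differ beyond their spread. TNFRSF10D at 2.87 ± 0.0436 and TNFSF10 at 1.62 ± 0.0967 CPM per kb came next. TNFRSF9 at 0.648 ± 0.22, TNF at 0.648 ± 0.158 and TNFSF9 at 0.461 ± 0.111 CPM per kb overlapped, and TNFSF15 had 0.0201 ± 0.00953. The death receptors were thus the more abundant members per length, and the ligands with TNFRSF9 the scarcer ones. At TNF 4 h the order differed. In SIK3 siRNA cells TNFRSF10B had 31.4 ± 0.676, FAS 9.72 ± 0.0302 and TNF 2.72 ± 1.27 CPM per kb. In control siRNA cells TNFRSF10B had 42.3 ± 3.95, FAS 33.3 ± 3.72 and TNF 9.32 ± 3.03 CPM per kb.

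**Figure D1:**
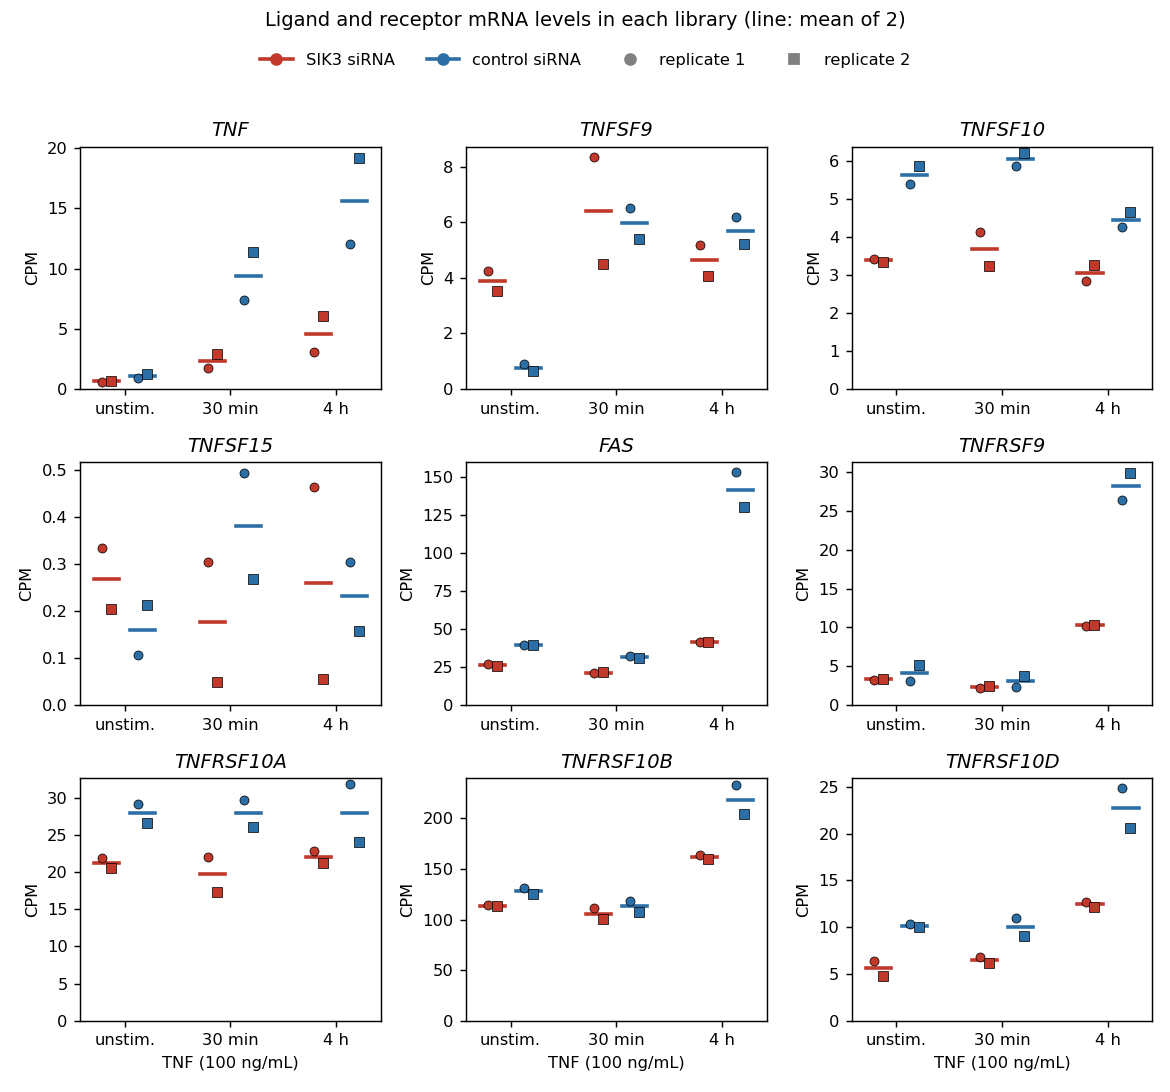
TMM-scaled CPM of each member (y axis, a separate linear scale per gene starting at 0) in SIK3 siRNA and control siRNA libraries that were unstimulated or given TNF for 30 min or 4 h (x axis). Points are single libraries and lines the mean of 2, and FAS at TNF 4 h sits at 41.4 and 41.2 CPM with SIK3 siRNA and at 153 and 130 CPM with control siRNA.

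TNF, the founding ligand of the family, was the member whose level differed most over the series, by 32.8-fold between the lowest and the highest library. In SIK3 siRNA cells it had 0.585 and 0.680 CPM unstimulated, 1.73 and 2.94 CPM at TNF 30 min and 3.05 and 6.06 CPM at TNF 4 h. In control siRNA cells it had 0.899 and 1.27 CPM unstimulated, 7.40 and 11.4 CPM at TNF 30 min and 12 and 19.2 CPM at TNF 4 h. Every stimulated library was above every unstimulated one, and at each of the TNF times both SIK3 siRNA libraries were below both control siRNA libraries. In control siRNA cells TNF mRNA rose 8.76-fold at 30 min (log2 fold change 3.13, SE 0.447, edgeR adjusted p = 0.0221) and 14.5-fold at 4 h (3.86, SE 0.447, adjusted p = 0.000457). In SIK3 siRNA cells it rose 7.29-fold at 4 h (2.87, SE 0.491, adjusted p = 0.011). The 30 min value there, 1.89 (SE 0.513), had an adjusted p of 0.583, and with the replicate number as a block it was 1.81 with an adjusted p of 0.000481.

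With SIK3 siRNA, TNF mRNA was 4.01-fold lower than with control siRNA at TNF 30 min (log2 fold change -2.00, SE 0.395, edgeR adjusted p = 0.00308) and 3.38-fold lower at TNF 4 h (-1.76, SE 0.377, adjusted p = 0.00486). Unstimulated cells had 24 TNF counts over both SIK3 siRNA libraries and 35 over both control siRNA libraries, and the log2 fold change of -0.77 (SE 0.581) had an adjusted p of 0.336. Whether the induction itself differed between the siRNAs was tested as an interaction, which was -1.24 (SE 0.716, adjusted p = 1) at 30 min and -0.99 (SE 0.705, adjusted p = 0.759) at 4 h. The level of TNF mRNA after stimulation therefore differed between the siRNAs, and its fold induction did not pass the test of a difference.

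TNFSF9, the ligand of TNFRSF9, had a different order of libraries. It had 4.26 and 3.54 CPM unstimulated, 8.35 and 4.51 CPM at TNF 30 min and 5.18 and 4.08 CPM at TNF 4 h with SIK3 siRNA. With control siRNA it had 0.899 and 0.636 CPM unstimulated, 6.53 and 5.41 CPM at TNF 30 min and 6.19 and 5.22 CPM at TNF 4 h. The unstimulated control siRNA libraries, with 26 counts in all, stood alone below the other 10. Between the siRNAs the levels overlapped at 30 min, and at 4 h both SIK3 siRNA libraries were below both control siRNA libraries. TNFSF9 rose with TNF in control siRNA cells, 7.58-fold at 30 min (log2 fold change 2.92, SE 0.357, edgeR adjusted p = 0.00816) and 7.27-fold at 4 h (2.86, SE 0.361, adjusted p = 0.000805). In SIK3 siRNA cells the log2 fold changes were 0.71 (SE 0.287, adjusted p = 1, with the block 0.72 and 0.0265) at 30 min and 0.23 (SE 0.296, adjusted p = 0.823) at 4 h.

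SIK3 siRNA went with 4.99-fold higher TNFSF9 than control siRNA in unstimulated cells (log2 fold change 2.32, SE 0.365, edgeR adjusted p = 0.000808). At TNF 30 min the log2 fold change between the siRNAs was 0.11 (SE 0.28, adjusted p = 0.801) and at TNF 4 h -0.31 (SE 0.293, adjusted p = 0.442). TNFSF9 was the 1 tested member that was higher with SIK3 siRNA in any of the 3 comparisons. The interaction at 4 h was -2.63 (SE 0.471, adjusted p = 0.0291). At 30 min it was -2.21 (SE 0.464), with an unadjusted p of 0.000869, an adjusted p of 1 and, with the block, -2.23 and an adjusted p of 0.00113.

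TNFSF10 encodes TRAIL, the ligand of the receptors TNFRSF10A, TNFRSF10B and TNFRSF10D. It had 3.43 and 3.33 CPM unstimulated, 4.12 and 3.24 CPM at TNF 30 min and 2.85 and 3.25 CPM at TNF 4 h with SIK3 siRNA. With control siRNA it had 5.39 and 5.87 CPM unstimulated, 5.87 and 6.21 CPM at TNF 30 min and 4.25 and 4.66 CPM at TNF 4 h. All 6 SIK3 siRNA libraries were below all 6 control siRNA libraries. It was lower with SIK3 siRNA at each time, 1.66-fold unstimulated (log2 fold change -0.73, SE 0.171, edgeR adjusted p = 0.00765), 1.64-fold at 30 min (-0.71, SE 0.167, adjusted p = 0.00782) and 1.45-fold at 4 h (-0.54, SE 0.179, adjusted p = 0.0372). TNF stimulation gave log2 fold changes of 0.12 and -0.14 with SIK3 siRNA and of 0.10 and -0.34 with control siRNA at 30 min and 4 h, none of which passed (adjusted p of 0.338 to 1).

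TNFSF15 (TL1A), a ligand best known from endothelial and myeloid cells, stayed at 1 to 9 counts per library and was not tested. It had 0.049 to 0.465 CPM in SIK3 siRNA libraries and 0.106 to 0.494 CPM in control siRNA libraries, against a floor of 0.132 to 0.222 CPM for 3 counts per library. The groups overlapped, and no difference was detectable at this depth.

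FAS (CD95), the receptor of FAS ligand, showed the widest called gap between the siRNAs among the 5 member receptors, 3.43-fold at TNF 4 h. With SIK3 siRNA it had 26.6 and 25.3 CPM unstimulated, 21.0 and 21.4 CPM at TNF 30 min and 41.4 and 41.2 CPM at TNF 4 h. With control siRNA the values were 39.6 and 39.6 CPM unstimulated, 32.3 and 31.0 CPM at TNF 30 min and 153 and 130 CPM at TNF 4 h. Stimulated for 4 h, SIK3 siRNA cells reached about the level of unstimulated control siRNA cells, and the groups did not overlap at any time. FAS rose 1.59-fold at TNF 4 h in SIK3 siRNA cells (log2 fold change 0.67, SE 0.0978, edgeR adjusted p = 0.00512) and 3.58-fold in control siRNA cells (1.84, SE 0.0986, adjusted p = 5.21e-06). The interaction was -1.17 (SE 0.137, adjusted p = 0.00531), so the induction was 2.25-fold smaller with SIK3 siRNA.

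At 30 min FAS had log2 fold changes of -0.29 (SE 0.0984, edgeR adjusted p = 0.835) in SIK3 siRNA cells and -0.32 (SE 0.0972, adjusted p = 0.639) in control siRNA cells, and with the block the control siRNA value was -0.32 with an adjusted p of 0.0244. Between the siRNAs FAS was 1.53-fold lower with SIK3 siRNA unstimulated (log2 fold change -0.61, SE 0.0978, adjusted p = 0.000909), 1.49-fold lower at TNF 30 min (-0.58, SE 0.0982, adjusted p = 0.00132) and 3.43-fold lower at TNF 4 h (-1.78, SE 0.0984, adjusted p = 2.73e-06). Of the merged FAS exon bases, 8.93% lie under exons of ACTA2 on the opposite strand, which had 645 counts over the 12 libraries against 9876 for FAS.

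TNFRSF9 had 3.22 and 3.40 CPM unstimulated, 2.14 and 2.50 CPM at TNF 30 min and 10.2 and 10.3 CPM at TNF 4 h in SIK3 siRNA cells. Control siRNA cells had 3.12 and 5.09 CPM unstimulated, 2.30 and 3.75 CPM at TNF 30 min and 26.5 and 29.9 CPM at TNF 4 h. The siRNA groups overlapped unstimulated and at 30 min and were apart at 4 h. It rose at 4 h, 3.1-fold with SIK3 siRNA (log2 fold change 1.63, SE 0.255, edgeR adjusted p = 0.00714) and 6.93-fold with control siRNA (2.79, SE 0.254, adjusted p = 9.64e-05). SIK3 siRNA cells were 2.74-fold below control siRNA cells at 4 h (-1.46, SE 0.235, adjusted p = 0.000987). The interaction at 4 h, -1.16 (SE 0.355), had an adjusted p of 0.199, and with the block it was -1.20 with an adjusted p of 0.00181.

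TNFRSF10B, the most abundant member, had 114 and 113 CPM unstimulated, 111 and 101 CPM at TNF 30 min and 164 and 160 CPM at TNF 4 h in SIK3 siRNA cells. The control siRNA values were 131 and 125 CPM unstimulated, 118 and 108 CPM at TNF 30 min and 233 and 204 CPM at TNF 4 h. The 4 h libraries were above all others of the same siRNA. TNFRSF10B rose 1.43-fold at 4 h with SIK3 siRNA (log2 fold change 0.51, SE 0.0955, edgeR adjusted p = 0.0156) and 1.71-fold with control siRNA (0.77, SE 0.0957, adjusted p = 0.000719). It was 1.35-fold lower with SIK3 siRNA at 4 h (-0.43, SE 0.0953, adjusted p = 0.00575). The unstimulated difference of -0.17 had an adjusted p of 0.187 (0.0131 with the block), and the interaction at 4 h of -0.26 an adjusted p of 0.564 (0.0412 with the block).

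TNFRSF10D, the decoy, had 6.44 and 4.76 CPM unstimulated, 6.82 and 6.18 CPM at TNF 30 min and 12.7 and 12.2 CPM at TNF 4 h in SIK3 siRNA cells. With control siRNA its values were 10.3 and 10.0 CPM unstimulated, 11.0 and 9.10 CPM at TNF 30 min and 24.9 and 20.6 CPM at TNF 4 h. The SIK3 siRNA libraries were below the control siRNA libraries at every time, and both sets were highest at 4 h. The rise at 4 h was 2.2-fold with SIK3 siRNA (log2 fold change 1.14, SE 0.178, edgeR adjusted p = 0.00705) and 2.24-fold with control siRNA (1.17, SE 0.172, adjusted p = 0.00212), and the interaction was -0.03 (SE 0.25, adjusted p = 1). With SIK3 siRNA it was 1.8-fold lower unstimulated (-0.84, adjusted p = 0.00448), 1.55-fold lower at 30 min (-0.63, adjusted p = 0.0184) and 1.83-fold lower at 4 h (-0.87, adjusted p = 0.00294).

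TNFRSF10A, the other death-domain receptor of TRAIL, had no called change with TNF in either siRNA. It had 21.9 and 20.5 CPM unstimulated, 22.1 and 17.4 CPM at TNF 30 min and 22.8 and 21.3 CPM at TNF 4 h with SIK3 siRNA. With control siRNA it had 29.2 and 26.6 CPM unstimulated, 29.7 and 26.1 CPM at TNF 30 min and 31.9 and 24.0 CPM at TNF 4 h. All SIK3 siRNA libraries were below all control siRNA libraries, while the times overlapped within each siRNA. At TNF 4 h the log2 fold change was 0.06 (SE 0.163, edgeR adjusted p = 0.944) with SIK3 siRNA and 0.00 (SE 0.162, adjusted p = 1) with control siRNA. The siRNA difference passed at 30 min (1.41-fold lower, -0.50, SE 0.162, adjusted p = 0.0358). It was -0.40 unstimulated (adjusted p = 0.0812, with the block 0.000769) and -0.34 at 4 h (adjusted p = 0.124, with the block 0.00396). Exons of AC100861.1 and TNFRSF10A-AS1 on the opposite strand cover 9.01% and 7.59% of its exon bases.

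**Figure D2:**
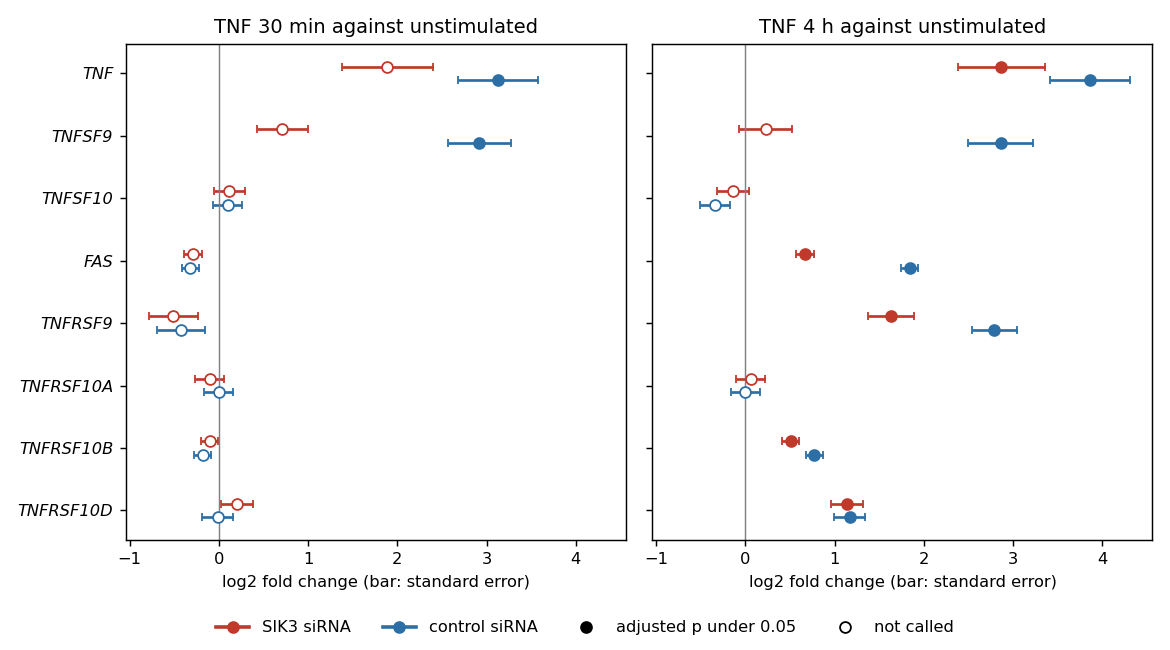
Log2 fold change of 8 members (x axis, bars 1 standard error of the edgeR fit) at TNF 30 min and TNF 4 h against unstimulated cells, for SIK3 siRNA and control siRNA. Filled points have an adjusted p under 0.05: at 30 min these are TNF (3.13) and TNFSF9 (2.92) with control siRNA, and at 4 h TNFRSF10A and TNFSF10 have open points with both siRNAs.

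Over the members, those that passed the test at 30 min in control siRNA cells were ligands, and receptors passed at 4 h. At 30 min 2 of 8 tested members rose, TNF and TNFSF9, against 0.270% of the 16695 genes tested that rose (edgeR, adjusted p under 0.05). At 4 h 6 of 8 rose, which were those ligands with FAS, TNFRSF9, TNFRSF10B and TNFRSF10D, against 5.53% of all genes. The median log2 fold change of the members was 1.50 beside -0.03 over all genes. The members were chosen with earlier results of these data known, so such shares, here and below, describe the list and do not test enrichment. Between 30 min and 4 h, a comparison added after the values had been seen, 4 of 8 members rose, against 6.18% of all genes. These were FAS (log2 fold change 2.16), TNFRSF9 (3.21), TNFRSF10B (0.95) and TNFRSF10D (1.18), none of which had passed as higher at 30 min. TNF (0.73, adjusted p = 0.288) and TNFSF9 (-0.06, adjusted p = 0.957) did not pass there. With the block 3 of 8 members passed at 30 min, FAS being added as lower, against 2.78% of all genes in either direction. The 30 min calls rested on few counts. The TNF call was lost without control siRNA unstimulated replicate 1, unstimulated replicate 2 or TNF 30 min replicate 2 (2.78 to 3.39, adjusted p of 0.156 to 0.365), and the TNFSF9 call without unstimulated replicate 1, unstimulated replicate 2 or TNF 30 min replicate 1 (2.73 to 3.22, adjusted p of 0.0615 to 0.116). Both were also lost when these 4 libraries were fitted alone (adjusted p of 0.0965 and 0.0533).

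In SIK3 siRNA cells no member passed at 30 min by edgeR, where 0.150% of all genes did, while 3 members (TNF, TNFSF9 and FAS) had an unadjusted p under 0.05 and the DESeq2 Wald test called TNF alone. With the block 2 members, TNF and TNFSF9, passed against 3.37% of all genes. At 4 h 5 of 8 members rose, against 3.65% of all genes that rose, and these were TNF, FAS, TNFRSF9, TNFRSF10B and TNFRSF10D, with a members' median log2 fold change of 0.59 beside 0.00 over all genes. From 30 min to 4 h FAS (0.96), TNFRSF9 (2.14), TNFRSF10B (0.62) and TNFRSF10D (0.94) rose, 4 of 8 against 4.94% of all genes. Without SIK3 siRNA unstimulated replicate 2 each of the 5 calls at 4 h was lost, with FAS at 0.62 (adjusted p = 0.0687). TNF and TNFRSF9 lost theirs also without unstimulated replicate 1 or TNF 4 h replicate 2 (adjusted p up to 0.113 and 0.0761), TNFRSF10D without TNF 4 h replicate 1 and TNFRSF10B without any of the 4 libraries (adjusted p up to 0.07 and 0.136). Fitted alone, these 4 libraries kept 2 of the 5 calls.

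**Figure D3:**
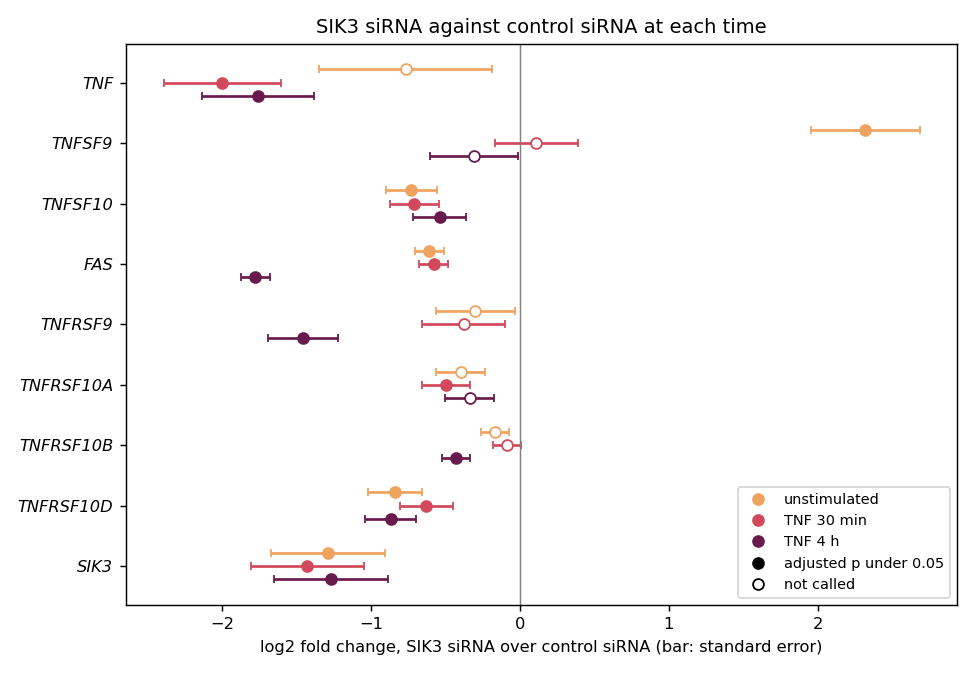
Log2 fold change of SIK3 siRNA over control siRNA (x axis, bars 1 standard error) for 8 members and SIK3 in unstimulated cells, at TNF 30 min and at TNF 4 h. Points left of 0 are lower with SIK3 siRNA, as for FAS at every time (-0.61, -0.58 and -1.78), and the unstimulated TNFSF9 point is at 2.32 on the right.

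Between the siRNAs most called members were lower with SIK3 siRNA, in a comparison in which 37.8 to 39.5% of all genes passed. In unstimulated cells 1 of 8 members, TNFSF9, was higher against 18.9% of all genes, and 3 of 8 (TNFSF10, FAS and TNFRSF10D) were lower against 19.8%. At TNF 30 min 5 of 8 were lower (TNF, TNFSF10, FAS, TNFRSF10A and TNFRSF10D) against 19.6%, and at TNF 4 h 6 of 8 (TNF, TNFSF10, FAS, TNFRSF9, TNFRSF10B and TNFRSF10D) against 19.9% of all genes. The members' median log2 fold changes were -0.50, -0.54 and -0.70, beside 0.01, -0.01 and 0.03 over all genes. FAS, TNFSF10 and TNFRSF10D were lower in all 3 comparisons. These use different libraries, but same-numbered libraries deviated together, so the comparisons are not independent. With the block 6 of 8 members passed unstimulated, against 58.4% of all genes, and 7 of 8 at 4 h, against 58.8%, TNFRSF10A being added at both and TNFRSF10B in unstimulated cells. At 30 min single libraries decided the calls of TNFRSF10A (lost without control siRNA replicate 1 or 2 or SIK3 siRNA replicate 2, adjusted p up to 0.183), TNFRSF10D (without control siRNA replicate 1 or SIK3 siRNA replicate 2, up to 0.104) and TNFSF10 (without SIK3 siRNA replicate 2, 0.0613). The TNFSF10 call at 4 h was lost without any of its 4 libraries (-0.64 to -0.46, adjusted p of 0.0711 to 0.171).

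The response to TNF was then compared between the siRNAs. At 4 h FAS and TNFSF9 had smaller responses with SIK3 siRNA, 2 of 8 members against 1.56% of all genes called in either direction and 0.845% called lower. With the block 4 of 8 passed, TNFRSF9 and TNFRSF10B being added, against 5.52% of all genes called lower. FAS and TNFSF9 differed in where the gap lay. FAS was lower with SIK3 siRNA already in unstimulated cells (-0.61, edgeR adjusted p = 0.000909) and by more at 4 h (-1.78, adjusted p = 2.73e-06). TNFSF9 had an unstimulated level that was higher with SIK3 siRNA, and its level at 4 h did not pass the test between the siRNAs (-0.31, adjusted p = 0.442). FAS kept its call without each of the 8 libraries in turn (-1.28 to -1.05, adjusted p up to 0.0368), whereas TNFSF9 lost it without any of them (-2.92 to -2.43, adjusted p of 0.0641 to 0.13). At 30 min edgeR called 0 of all genes (0%), of which 317 had an unadjusted p under 0.05, TNFSF9 alone among the members, and the DESeq2 Wald test called 6 genes and no member. With the block 1 member, TNFSF9, passed against 0.264% of all genes.

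The rest of the family was read from lists of 14 other ligands and 24 other receptors, of which 5 and 15 passed the filter, and of 20 genes of death-receptor signalling, of which 19 did. At TNF 4 h in SIK3 siRNA cells 1 of 5 ligands, 2 of 15 receptors and 8 of 19 signalling genes rose, against 3.65% of all genes. In control siRNA cells 2 of 5, 6 of 15 and 5 of 19 rose, against 5.53% of all genes. CD40, the costimulatory receptor of antigen-presenting cells, had 39.2 and 46.9 CPM with SIK3 siRNA and 214 and 177 CPM with control siRNA at 4 h. Unstimulated, it had 19.2 and 18.3 CPM with SIK3 siRNA and 18.3 and 16.7 CPM with control siRNA. It rose 2.3-fold with SIK3 siRNA and 11.1-fold with control siRNA, and the interaction of -2.28 passed (SE 0.183, edgeR adjusted p = 0.0014). LTB, a subunit of the lymphotoxin heterotrimer, rose 2.97-fold with SIK3 siRNA and 3.39-fold with control siRNA. CD70, the ligand of CD27, rose 2.84-fold with control siRNA, and its interaction was -1.14 (adjusted p = 0.00531). NGFR (7.09-fold), TNFRSF18 (6.04-fold) and TNFRSF25 (4.55-fold), receptors for neurotrophins, for GITR ligand and for TL1A, rose with control siRNA. TNFRSF18 also passed the interaction (-2.26, adjusted p = 0.033), from an unstimulated level that was 7.44-fold higher with SIK3 siRNA.

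**Figure D4:**
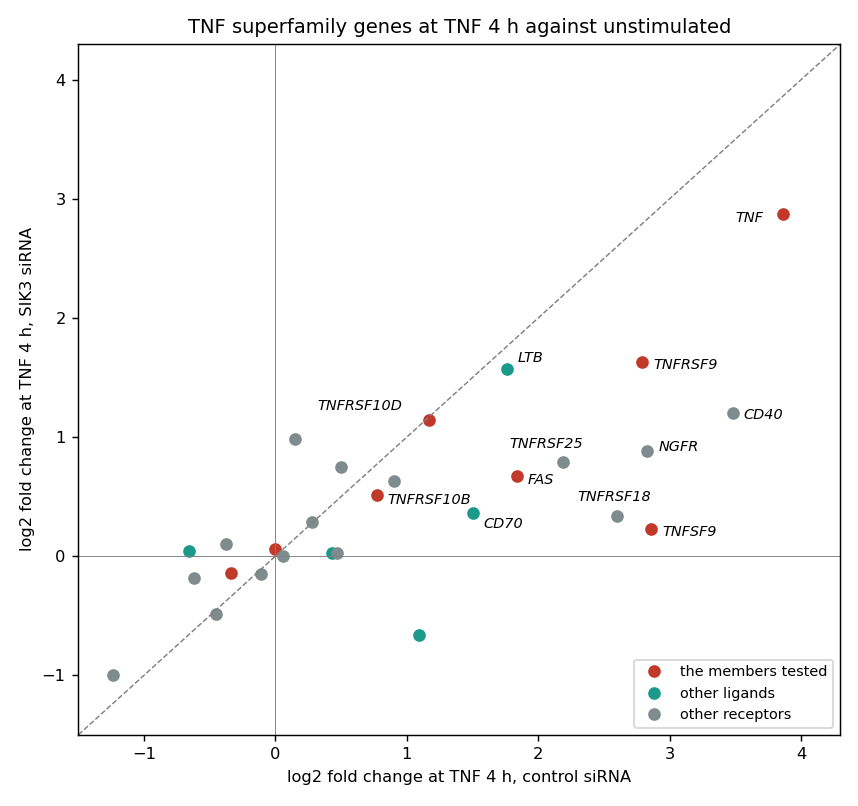
Log2 fold change at TNF 4 h against unstimulated cells for each tested TNF superfamily ligand and receptor, in SIK3 siRNA cells (y axis) and control siRNA cells (x axis), with the line of equal change dashed. FAS (0.67 and 1.84), CD40 (1.20 and 3.48) and TNFSF9 (0.23 and 2.86) lie below the line, and TNFRSF10D (1.14 and 1.17) lies on it.

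Among signalling genes TRAF1, an adaptor of TNF receptors, rose at 4 h 2.89-fold with SIK3 siRNA and 5.92-fold with control siRNA (interaction -1.04, edgeR adjusted p = 0.00598). At 30 min it was the 1 signalling gene called in either siRNA, as lower, with log2 fold changes of -1.01 (adjusted p = 0.00291) and -0.87 (adjusted p = 0.00285). CFLAR (c-FLIP), which blocks caspase-8 at the receptor, rose 2.06-fold and 2.73-fold at 4 h, and BIRC3 (cIAP2), a ubiquitin ligase of the TNF receptor complex, rose 2.58-fold and 2.54-fold. CYLD, a deubiquitinase that restrains NF-κB signalling, rose 1.93-fold and 3.65-fold (interaction -0.92, adjusted p = 0.0291).

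Between the siRNAs in unstimulated cells, 1 of 5 other ligands was higher and 2 lower with SIK3 siRNA, 3 of 15 receptors were higher and 6 lower, and 2 of 19 signalling genes were higher and 8 lower. Of all genes 18.9% were higher and 19.8% lower, so the shares of ligands and receptors called higher were near those of all genes. LTB was 5.15-fold lower with SIK3 siRNA and CD70 1.45-fold higher, and TNFSF18 had 2 counts over both SIK3 siRNA libraries and 13 over both control siRNA libraries. Among receptors TNFRSF18 and TNFRSF25 were 7.44-fold and 3.37-fold higher. The TNF receptors were lower, TNFRSF1A at 42.4 ± 5.05 CPM with SIK3 siRNA and 71.5 ± 5.61 CPM with control siRNA (adjusted p = 0.00262) and TNFRSF1B at 26.7 ± 3.26 and 55.7 ± 1.35 CPM (SD, n = 2 each; edgeR adjusted p = 0.000579). XIAP, an inhibitor of caspases, was 5.32-fold lower with SIK3 siRNA, at 59.3 ± 5.1 and 316 ± 21.4 CPM. MLKL, the effector of necroptosis, was 3.05-fold lower and DAP3, a mitochondrial ribosomal protein, 1.76-fold higher. At TNF 30 min 2 of 19 signalling genes were higher and 9 lower, against 18.2% and 19.6% of all genes. At TNF 4 h 1 was higher and 8 lower, against 19.6% and 19.9% of all genes.

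The members' patterns over the 12 libraries were compared by Pearson's correlation of log2 CPM, as a description without a test, since the libraries share groups and TNF times. FAS, TNFRSF9, TNFRSF10B and TNFRSF10D followed one another most closely, with r of 0.85 to 0.95 in their 6 pairings. TNFSF10 and TNFRSF10A came together at r = 0.72, both being lower in all SIK3 siRNA libraries. TNFSF9 had r of -0.33 to 0.49 with the other 7 tested members. Of all tested genes with a symbol, the most alike were TNFAIP3 (0.982), NFKBID (0.970) and PIM1 (0.968) for TNF. For TNFSF9 they were CD69 (0.938), ANGPTL6 (0.910) and CCDC88B (0.876). For FAS they were CCL5 (0.991), VCAM1 (0.988) and LRRFIP2 (0.984), for TNFRSF9 ICAM1 (0.989), DENND3 (0.987) and SLCO5A1 (0.985), and for TNFRSF10B RNF19A (0.993), TNFAIP8 (0.992) and CYLD (0.991). For TNFRSF10D they were GCNT2 (0.982), ZBTB10 (0.978) and RAPGEF3 (0.975), for TNFSF10 CXXC4 (0.972), VPS26B (0.972) and TFDP2 (0.969), and for TNFRSF10A NUP85 (0.972), HPF1 (0.968) and TCP1 (0.960). Of these genes ANGPTL6 and CXXC4 had low levels, with means of 0.357 and 0.928 CPM over the 12 libraries.

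Read by the titles, the same pairs of libraries give other comparisons. The pair with the highest FAS, 153 and 130 CPM, is titled control siRNA at TNF 30 min, and the FAS rise of 1.84 would then be that of 30 min. The libraries titled SIK3 siRNA unstimulated are those with TNF mRNA at 7.40 and 11.4 CPM, so unstimulated SIK3 siRNA cells would exceed control siRNA cells by a log2 fold change of 3.13 in TNF and 2.92 in TNFSF9. Their SIK3 mRNA stood at 42.5 and 68.7 CPM. The libraries titled control siRNA at TNF 4 h had SIK3 mRNA at 17.3 and 24.0 CPM and FAS at 21.0 and 21.4 CPM, a FAS log2 fold change of -0.90 against unstimulated control siRNA cells. The pairs named alike in both sources are SIK3 siRNA at TNF 4 h and control siRNA unstimulated. Between these pairs, compared after the values had been seen and differing in both siRNA and TNF, 4 of 8 members were higher in the SIK3 siRNA pair against 20.9% of all genes, and 1 was lower against 20.1%. The higher ones were TNF (2.10), TNFSF9 (2.55), TNFRSF9 (1.34) and TNFRSF10B (0.34) and the lower one TNFSF10 (-0.88, edgeR adjusted p = 0.00302), while FAS stood at 0.06 (SE 0.0969, adjusted p = 0.657).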

How the data were processed

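RNA from 12 libraries of PANC-1 cells was extracted with an RNeasy kit and DNase I and made into libraries with the ScriptSeq kit, per the labels' protocols. The deposited values are raw counts of reads per gene, and STAR 2.05b, edgeR and GRCh38 are named in the submitters' processing notes. The strand setting and annotation release are not given in the sources used here, so reads of overlapping antisense genes cannot be told apart. The 4 summary entries (unmapped, multimapping, no feature, ambiguous) were left out of library sizes, and replicates of a group differed by more than counting error (chi-square of 16.5 to 33.5 per degree of freedom).

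The counts went into edgeR 4.0.16, run in R 4.3.3, after a filter by filterByExpr (minimum count 10) that kept 16695 genes. A quasi-likelihood fit of the 12 libraries, TMM scaling, 6 groups of 2 and 6 residual degrees of freedom gave 7 pairwise comparisons and 2 interactions, each adjusted by Benjamini-Hochberg over all genes tested, with a threshold of 0.05. An interaction is the log2 response to TNF with SIK3 siRNA minus that with control siRNA. The fit was tested on simulated data. SIK3 was compared by an exact permutation test over samples. CPM are TMM-scaled, and CPM per kb divides by merged GENCODE 29 exons. Symbols came from GENCODE 29, and 3742 identifiers had no symbol. Sequences came from RefSeq promoter windows (GRCh38.p14), and no sequence is printed for the 3 members on chromosome 8. Figures were made in Python 3.11.15.

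Groups followed the words in the table names, and the titles, which the characteristics match, were an alternative. Same-numbered libraries deviated together, with a correlation of 0.35 to 0.53 (median 0.421) across genes in all 15 pairs of groups, so the numbers pair the samples and blocked values stand beside results whose call they change. Other alternatives were DESeq2 1.42.0 size factors and Wald test, library totals, and genes unfiltered or kept only at a CPM of 1 or more in 4 or more libraries. Further ones were libraries compared alone, an adjusted p under 0.01 and each library left out in turn. None of these used the block. Named genes were the members, SIK3, up to 4 called genes per other list with the smallest p, and the 3 genes most correlated with each tested member. Genes with no symbol were left out of that correlation ranking. One of the signalling genes that the rule selects is not reported here. The members and lists were chosen with earlier results of these data known.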

Additional observations from a re-analysis of the deposited data

Results flagged for a closer look

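The responses of FAS and TNFSF9 to TNF at 4 h differed between the siRNAs, and the difference itself passed the edgeR test (adjusted p of 0.00531 and 0.0291). For FAS the log2 response was 0.67 with SIK3 siRNA and 1.84 with control siRNA, an interaction of -1.17. For TNFSF9 it was 0.23 with SIK3 siRNA and 2.86 with control siRNA, an interaction of -2.63. With the replicate block the interactions were -1.17 for FAS and -2.61 for TNFSF9 (edgeR adjusted p of 1.55e-07 and 1.86e-05). The TNFSF9 value rests on 26 counts in the unstimulated control siRNA libraries. In fits with no block it lost its call without any 1 of its 8 libraries, at -2.92 to -2.43. Reads in no annotated feature were 16.5 and 17.1% in the SIK3 siRNA libraries at TNF 4 h, against 8.35 to 10.5% elsewhere, and their part in both values was not tested.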

How the results depend on the processing

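Over 8 tested members and 9 comparisons, no log2 fold change that had passed the test changed its direction under any alternative with the table-name conditions. Counts of members called below are given by setting. A count with no share of all genes beside it shows only how many were called, not how the members compare with other genes. With the replicate block, which pairs same-numbered libraries, TNF 30 min in SIK3 siRNA cells gave 2, the interaction 1 at 30 min and 4 at 4 h, and no call was lost. The DESeq2 Wald test gave 1 for TNF 30 min in SIK3 siRNA cells (58 of all genes passed). No filter gave 1 there and 1 for the interaction at 30 min. With the libraries of a comparison fitted alone, TNF 30 min in control siRNA cells gave 0 (14 of all genes passed by edgeR), TNF 4 h in SIK3 siRNA cells 2 and SIK3 siRNA against control siRNA at 30 min 3. At an adjusted p under 0.01 these 3 comparisons gave 1, 3 and 3, and the interaction at 4 h 1. Read by the titles, most comparisons had other counts, given here with the share of all genes called in either direction. For TNF 30 min, 6 were higher in control siRNA cells (8.99%) and 4 lower in SIK3 siRNA cells (40.1%). For TNF 4 h, control siRNA cells had 1 higher and 6 lower (37.9%), and SIK3 siRNA cells 3 higher and 1 lower (41.8%). Between the siRNAs, 2 were higher unstimulated (0.294%) and 5 lower at 30 min (42.5%). At 4 h 4 were higher between the siRNAs (7.08%), where the table names gave 6 lower. The interactions gave 6 at 30 min and 4 at 4 h, and SIK3 mRNA differed by -0.354. With each library left out in turn, 0 to 1 members were called for TNF 30 min and 6 for TNF 4 h in control siRNA cells, 0 and 0 to 3 for these in SIK3 siRNA cells, 4, 2 to 5 and 5 to 6 between the siRNAs unstimulated, at 30 min and at 4 h, and 0 and 1 for the interactions at 30 min and 4 h. DESeq2 size factors and the stricter filter changed no call. Scaled by library totals, the median log2 fold change of all genes between the siRNAs was 0.09 at 30 min and 0.13 at 4 h, against -0.01 and 0.03 with TMM. Calls lost under this scaling were TNFRSF10A at 30 min (-0.40, adjusted p = 0.093) and TNFSF10 at 4 h (-0.44, adjusted p = 0.0857). TNFSF10 at 4 h also missed with the DESeq2 Wald test (adjusted p = 0.114), no filter (0.183) and the libraries fitted alone (0.112). The cause of these changes was not tested. Intervals of 2 libraries are wide, and at 1 to 9 counts TNFSF15 could not be compared.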
